A study of Homo sapiens with 14 samples.

Results

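PTBP1, PTBP2, PTBP3, RBFOX2, MBNL1, MBNL2, QKI, CELF1, TIA1 and TIAL1 encode RNA-binding proteins that decide which exons are kept in other transcripts, and their own transcripts are alternatively spliced in turn. Their splice events were followed in HEK293T, an embryonic kidney cell line, with wild-type SF3B1 (WT, genotype K700K, 3 RNA-Seq libraries) or with SF3B1 K700E (MT, 3 libraries). All events of the 10 genes with a mean of at least 10 junction reads were taken from the junction table of the study. Neither their type nor a measured difference entered this choice of events, but the 10 genes were chosen with earlier results of these data known. The read minimum left 146 of the 158 events listed for these genes, out of 114349 events in the whole table. The events came from 115 distinct alternative segments, because the same exon can be listed with several flanking exons, and events of the same segment share reads. The study describes the WT and MT cells as isogenic lines with the mutation at the endogenous SF3B1 locus, and neither its labels nor its methods say that libraries of a genotype came from separate cultures, so the spread between libraries may be technical. The series also holds 8 DRIP-seq libraries of Nalm-6 cells, a B cell leukemia line, which measure DNA-RNA hybrids and were not used here.

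SF3B1 is a component of the U2 small nuclear ribonucleoprotein, which recognizes the branch site upstream of a 3′ splice site. The K700E change is known for the use of cryptic 3′ splice sites a short way upstream of the normal site. The proteins studied here act differently, by binding short words in the pre-mRNA: PTBP proteins bind pyrimidine-rich UCUU stretches and mostly repress exons, RBFOX2 binds UGCAUG, MBNL proteins bind UGC-containing words, QKI binds ACUAAC-like words, CELF1 binds GU-rich runs, and TIA1 and TIAL1 bind U-rich runs next to 5′ splice sites. Several of them control exons of their own transcripts or of their paralogs.

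The exons that the families share are shown first, since their use sets which protein is made. PTBP1 and PTBP2 each hold a 34-bp exon whose skipping shifts the reading frame and sends the transcript to nonsense-mediated decay, and PTBP3 lists an exon of the same length. Capitals mark the exon and lower case the first 15 bases of the intron on each side, on the strand of the transcript of GRCh38 (PTBP1 at chr19:807854-807917, PTBP2 at chr1:96806404-96806467, both on the plus strand; PTBP3 at chr9:112330426-112330489, on the minus strand).
PTBP1: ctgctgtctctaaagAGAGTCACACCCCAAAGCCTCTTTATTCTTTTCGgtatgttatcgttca
PTBP2: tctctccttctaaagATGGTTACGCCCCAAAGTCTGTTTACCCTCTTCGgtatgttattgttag
PTBP3: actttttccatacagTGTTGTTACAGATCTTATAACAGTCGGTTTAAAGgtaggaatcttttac

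The PTBP1 and PTBP2 exons have the same base at 25 of 34 positions (73.5%), and the PTBP3 exon matches PTBP1 at 6 positions (17.6%) and PTBP2 at 5 (14.7%). The PTBP3 segment of equal length is therefore not the counterpart of the other 2 in sequence.

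MBNL1 and MBNL2 share a 54-bp exon that is known to promote nuclear localization and a 36-bp exon that is known to take part in self-association. They are shown in the same way, and all are on the plus strand (MBNL1 at chr3:152446689-152446772 and chr3:152455527-152455592, MBNL2 at chr13:97356781-97356864 and chr13:97365121-97365186).
MBNL1, 54 bp: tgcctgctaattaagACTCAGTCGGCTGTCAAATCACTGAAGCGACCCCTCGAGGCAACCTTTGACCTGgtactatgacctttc
MBNL2, 54 bp: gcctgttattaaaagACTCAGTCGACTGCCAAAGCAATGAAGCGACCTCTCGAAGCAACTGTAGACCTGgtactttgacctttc
MBNL1, 36 bp: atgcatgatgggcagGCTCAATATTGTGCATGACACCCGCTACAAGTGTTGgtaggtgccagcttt
MBNL2, 36 bp: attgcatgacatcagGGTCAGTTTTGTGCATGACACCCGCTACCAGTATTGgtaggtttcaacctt

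The paralogs have the same base at 45 of 54 positions (83.3%) of the longer exon and at 31 of 36 (86.1%) of the shorter.

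For each event the table gives an inclusion level per library, the fraction of length-corrected junction reads that support the longer or included form, from 0 to 1. A difference is the mean level of MT minus that of WT, with its 95% interval from limma. An event was called when the adjusted p of limma, corrected over all 83581 events tested, was under 0.05 and the difference was above 0.1 in size. Member events had 12.9 to 1540.8 mean reads, with a median of 117.8 against 82.4 over all events tested. The MT libraries are named MT1 to MT3 by the order of their columns, which are 3 of 6 MT values listed for each event, and it is not settled that these are the 3 MT samples of the study. The same columns differed at SERBP1 in use of a 3′ splice site 18 bp upstream. It was 0.461, 0.5 and 0.509 in WT libraries and 0.801, 0.757 and 0.805 in MT. That event was picked from those called in the same fit, so it is not an independent check of the columns. None of the 13 marker genes of HEK293T, B-lineage or K562 cells that were looked up had an event with 10 mean reads, so the table gave no check of the cell type, and splice events do not measure expression.

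No event of the 10 genes was called. Of the 146 events, 133 were tested and 13 had the same level in every library used. At these 13 the authors' mean MT reads of the shorter or skipped form, which cover all 6 listed MT values, were 0.2 or 0.3. All 133 adjusted p-values were 0.856 or higher (limma), where 26 of all 83581 events tested, 0.0311%, were called. That count over all genes fell to between 3 and 13 when any 1 library was left out, and to 0 on the logit or untransformed scale or without a variance trend. At an unadjusted p under 0.05 there were 3 member events (2.26%), against 4.47% of all events. The difference was above 0.1 in size in 2 member events (1.5%), against 5.82% of all events. The 3 libraries of one genotype all lay on one side of the other genotype in 3 member events (2.26%, 1 with MT higher and 2 with MT lower), against 5.46% of all events. MT was higher in 65 events and lower in 67, and the median size of the difference was 0.0123 for members and 0.0137 for all events. Where both forms were in use (a mean level between 0.05 and 0.95), the medians were 0.03 over 54 member events and 0.0387 over 30452 events of all genes.

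These counts do not show that the 10 genes were spliced alike in WT and MT. The 95% interval lay within 0.1 of 0 on both sides in 82 of the 133 events (61.7%, against 62.3% of all events tested), but in 12 of the 54 events with both forms in use. In the other 42 of those 54, a difference of 0.1 in one direction or the other was within the interval.

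**Figure D1:**
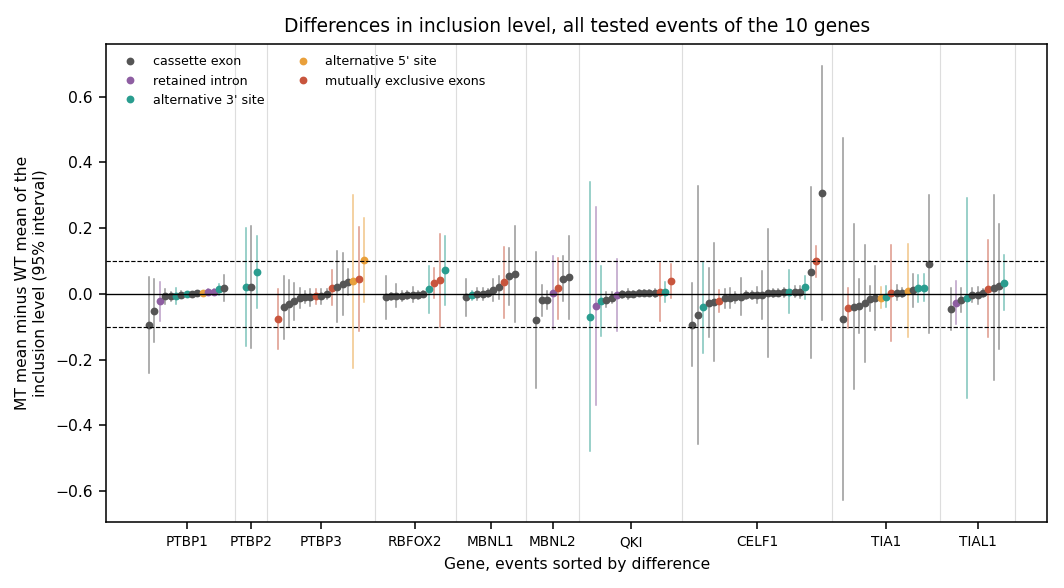
Difference in inclusion level (MT mean minus WT mean, y axis, fraction) for each of the 133 tested events of the 10 genes, sorted within each gene along the x axis; points are coloured by event type, lines are 95% intervals from limma, and dashed lines mark 0.1 and −0.1. Most points lie close to 0, and the point at 0.308 is a CELF1 exon with 12.9 mean reads and an interval that reaches from −0.0788 to 0.6948.

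PTBP1 is the widely expressed repressor of neuronal exons. The use of its 78-bp exon 9 (chr19:805492-805569, coding, in the linker between RNA-binding domains) sets how strongly the protein represses. Its inclusion level was 0.802, 0.728 and 0.796 in WT libraries and 0.768, 0.753 and 0.651 in MT, over 765.2 mean reads. Both genotypes kept the exon in most transcripts and their libraries overlapped, with the lowest level in MT3. The means were 0.775 ± 0.0411 and 0.724 ± 0.0637 (SD, n = 3), a difference of −0.0513 (95% interval −0.147 to 0.0446; adjusted p = 0.856).

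A second 3′ splice site 21 bp into exon 9 gives a 57-bp form. As a cassette exon this shorter form had levels of 0.491, 0.389 and 0.443 in WT libraries and 0.436, 0.371 and 0.233 in MT, a difference of −0.0943 (interval −0.2406 to 0.0520; adjusted p = 0.856), and it was described after its values were seen. Its downstream junction is also that of the 78-bp form, so the 2 levels are not independent. The direct comparison of the 3′ splice sites put use of the upstream site at 0.956 ± 0.0111 in WT and 0.970 ± 0.004 in MT (SD, n = 3), so the 78-bp form was the main one in both.

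The 34-bp exon 11 of PTBP1, printed above, was kept in nearly all measured transcripts. Its levels were 0.994, 0.994 and 0.987 in WT libraries and 0.996, 0.989 and 0.996 in MT over 690.5 mean reads, and the interval of the difference was −0.0062 to 0.0102. Transcripts that skip it are known to be degraded, which lowers their share in RNA. The PTBP1 event with the most reads of all member events, 1540.8, was a 403-bp segment that spans 2 exons and the intron between them, with levels of 0.999 to 1. That level counts junctions at the ends of the segment, so it does not show that the intron was kept. The 83-bp intron inside that segment (chr19:804209-804291) was retained at a level of 0.0597 in WT and 0.0660 in MT (interval of the difference −0.0013 to 0.0140).

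PTBP2, the paralog of neurons, is held down in other cells by PTBP1, which represses the 34-bp exon 10 of PTBP2. This exon stood at 0.681, 0.541 and 0.605 in WT libraries and at 0.678, 0.726 and 0.488 in MT, over 32.8 mean reads. It was the only one of the 3 printed PTBP exons with both forms well represented, and the MT libraries spread on either side of the WT range. The difference was 0.0217 (interval −0.163 to 0.207; adjusted p = 0.959), which leaves room for a change of 0.1 in either direction. PTBP2 had 7 events and 3 that varied, all between 0.05 and 0.95. Its most read varying event was a choice between 3′ splice sites 3 bp apart, at 0.407, 0.443 and 0.466 in WT libraries and 0.454, 0.467 and 0.595 in MT (difference 0.0667, interval −0.0424 to 0.1757).

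PTBP3 is the remaining member of the family. Its 34-bp segment was rarely included, at 0, 0.027 and 0.044 in WT libraries and 0.042, 0.073 and 0.069 in MT (difference 0.0377, interval −0.0019 to 0.0772; adjusted p = 0.856). The lowest MT library lay just under the highest WT library. A 5′ splice site choice in coding exon 2, 9 bp wide (chr9:112297832-112297840), stood at 0.443, 0.539 and 0.505 in WT libraries and 0.519, 0.586 and 0.693 in MT, and was described after its values were seen. The difference was 0.104 (interval −0.0245 to 0.2318; adjusted p = 0.856), and the same 9 bases listed with another flanking exon gave 0.0380 at 23.4 mean reads. The 170-bp exon 3 was kept at 0.823 ± 0.0685 in WT and 0.854 ± 0.0290 in MT (SD, n = 3) in its most read listing, with 133.5 mean reads. Of its other 3 listings, 1 gave 0.869 and 0.891 (means of WT and MT), and the others, with 37.4 and 84.7 mean reads, gave 1 in WT and 0.970 and 0.991 in MT. The most read PTBP3 event, the 175-bp exon 7, was at 0.989 to 1 in every library.

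MBNL1 and MBNL2 direct the exon choices of differentiated muscle and other tissues, and their protein forms differ by the exons printed above. The 54-bp exon of MBNL1 stood at 0.861, 0.783 and 0.858 in WT libraries and 0.914, 0.829 and 0.919 in MT over 117.8 mean reads, a difference of 0.0533 (interval −0.0325 to 0.1392; adjusted p = 0.856). Its MBNL2 counterpart stood at 0.908, 0.618 and 0.760 in WT libraries and 0.604, 0.727 and 0.717 in MT over 25.7 mean reads, a difference of −0.0793 (interval −0.2857 to 0.1271; adjusted p = 0.856). The difference had opposite signs in the paralogs, and the libraries of WT and MT overlapped in each. The MBNL2 difference was −0.0063 without WT1 and −0.1513 without WT2. The MBNL1 exon listed with another flanking exon, at 38.5 mean reads, was at 1 in every library.

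The 36-bp exon separated the paralogs in level. In MBNL1 it was kept at 0.939, 0.939 and 0.955 in WT libraries and 0.888, 0.946 and 0.969 in MT (83.7 mean reads). In MBNL2, with 14.7 mean reads, it was at 0 in all WT libraries and at 0, 0.153 and 0 in MT. Each genotype therefore showed mostly inclusion in MBNL1 and mostly skipping in MBNL2, and the libraries of WT and MT overlapped in each gene. The difference was −0.01 in MBNL1 (interval −0.0664 to 0.0464, adjusted p = 0.967 by limma). In MBNL2 it was 0.051 (interval −0.0749 to 0.1769, adjusted p = 0.856 by limma), which leaves room for an increase of 0.1. The 95-bp exon was nearly always kept in both genes, at 0.995 and 0.996 in MBNL1 and at 0.954 and 1 in MBNL2 (means of WT and MT). The most read event of MBNL1, its 963-bp exon 2, was at 0.985 to 1 in every library, and that of MBNL2, its 165-bp exon 3, at 1 in all WT libraries and at 1, 0.969 and 0.974 in MT.

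RBFOX2 had 13 events. Its 93-bp exon 6 encodes part of the RNA-binding domain, and its skipping is known to yield a protein that interferes with the full-length form. The exon was at 1 in all WT libraries and at 1, 0.99 and 0.991 in MT (interval of the difference −0.0169 to 0.0043). The 40-bp exon 11, near the C-terminus, was kept at 0.980, 0.970 and 0.938 in WT libraries and 0.970, 0.960 and 0.943 in MT (interval of the difference −0.0397 to 0.0297). The 43-bp exon known from muscle was nearly always skipped, with mean levels of 0.0057 and 0.0027. In both genotypes, most RBFOX2 junction reads thus kept the 93-bp and 40-bp exons and left out the 43-bp exon. The most read event of the gene, its 225-bp exon 3, was at 1, 0.993 and 1 in WT libraries and at 1, 1 and 0.993 in MT.

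**Figure D2:**
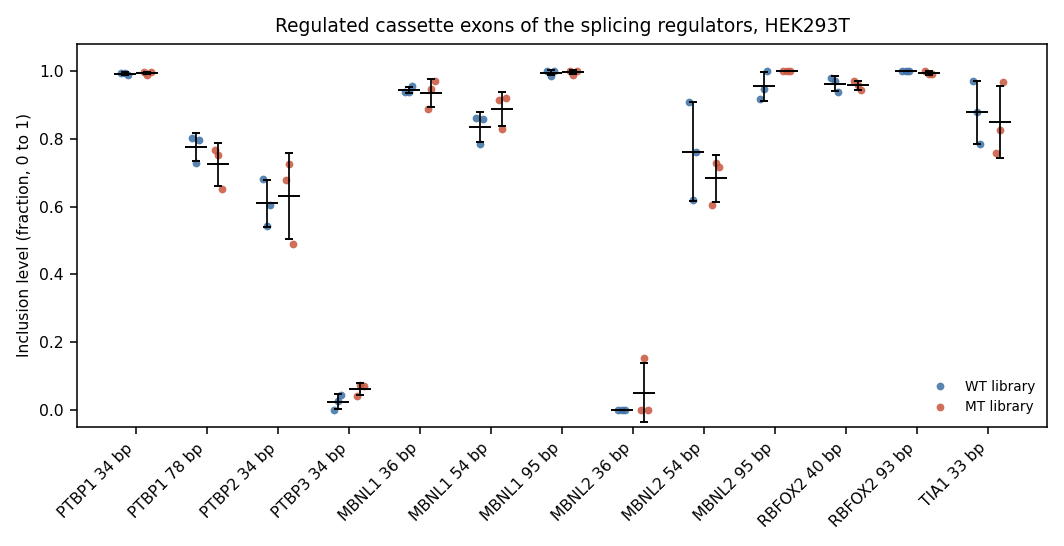
Inclusion level (y axis, fraction from 0 to 1) of the 13 cassette exons chosen by gene and length, in each WT (blue) and MT (red) library. Horizontal bars are means and whiskers SD (n = 3). The PTBP3 exon was picked by its length and is not the counterpart of the PTBP1 and PTBP2 exons in sequence. WT and MT libraries overlap at each of the 13 exons, and the levels range from near 0 for the 36-bp exon of MBNL2 to near 1 for the 93-bp exon of RBFOX2.

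For these 13 exons of PTBP1, PTBP2, PTBP3, MBNL1, MBNL2, RBFOX2 and TIA1 together, MT was higher at 7 and lower at 6, and differences ran from −0.0793 to 0.0533. None had libraries of the genotypes apart from each other, and adjusted p-values ran from 0.856 to 0.993.

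TIA1 and TIAL1 (TIAR) help U1 to bind weak 5′ splice sites. The 33-bp exon 5 of TIA1 distinguishes its a and b isoforms and stood at 0.970, 0.880 and 0.785 in WT libraries and 0.757, 0.825 and 0.966 in MT. Each genotype covered almost the same range, and the difference was −0.0290 (interval −0.2083 to 0.1503; adjusted p = 0.883). A 119-bp segment beside it, outside the annotated coding sequence, was at 0.379, 0.096 and 0.327 in WT libraries and 0.253, 0.089 and 0.344 in MT. Libraries of the same genotype differed more than the genotypes did, and the lowest of each were WT2 and MT2. The most read events were the 97-bp exon 2 of TIA1, at 0.978 to 1 in every library, and the 99-bp exon 3 of TIAL1, at 0.974 to 1. In TIAL1, use of a 3′ splice site 51 bp upstream, which separates the long and short TIAR isoforms, was 0.396, 0.382 and 0.321 in WT libraries and 0.389, 0.354 and 0.458 in MT over 218.8 mean reads (difference 0.0340, interval −0.0502 to 0.1182). A 329-bp intron of TIAL1 was retained at 0.0933 ± 0.0498 in WT and 0.0670 ± 0.0110 in MT (SD, n = 3).

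QKI proteins differ in their last exons, which decide whether the protein stays in the nucleus. The 3′ splice site 775 bp upstream in that region was used at 0.124, 0.149 and 0.166 in WT libraries and 0.111, 0.051 and 0.213 in MT (difference −0.0213, interval −0.1288 to 0.0862). The site 1279 bp upstream was used at 0.830, 0.484 and 0.486 in WT libraries and 0.818, 0.333 and 0.442 in MT, over 28.4 mean reads. At the second choice WT1 and MT1 stood high, and its unpaired interval of −0.479 to 0.341 says little about the genotypes. The most read QKI event was the 143-bp exon 2, at 0.971, 0.966 and 0.989 in WT libraries and 0.951, 0.949 and 0.973 in MT (difference −0.0177, interval −0.0408 to 0.0055). A 144-bp QKI exon was among the 3 member events with an unadjusted p under 0.05, with levels of 1, 0.985 and 1 in WT libraries and 0.973, 0.986 and 0.992 in MT (unadjusted p = 0.0300, adjusted p = 0.856 by limma). In its other 2 listings the exon was at 0.991 to 1 in every library.

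CELF1 had the most events, 26, and 11 with both forms in use. Its most read event, the 80-bp exon 8, was at 1, 0.995 and 1 in WT libraries and at 1, 0.984 and 0.979 in MT (difference −0.0107, interval −0.0262 to 0.0049). The exon with the largest difference of any member was a 40-bp segment outside the coding sequence (chr11:47506858-47506897) at 0.539, 0.338 and 0.413 in WT libraries and 0.778, 0.436 and 1 in MT. It rested on 12.9 mean reads, MT2 fell inside the WT range, and the interval of −0.0788 to 0.6948 included 0 (unadjusted p = 0.0338, adjusted p = 0.856). The same 40 bases listed with other flanking exons and 46.7 mean reads gave 0.042 in WT and 0.0337 in MT, a difference of −0.0083. A 105-bp exon in the 3′ part of the gene, also described after its values were seen, was at 0.958, 0.763 and 0.889 in WT libraries and at 0.784, 0.778 and 0.769 in MT. The 152-bp exon 3 gave 0.384 and 0.361 (means of WT and MT) in one flanking context and 0.778 and 0.752 in another, so the level of this exon depends on the event it is listed in. The differences between the genotypes were −0.0233 (interval −0.2029 to 0.1562) and −0.0260 (interval −0.1309 to 0.0789), so a change of 0.1 was within both intervals.

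The 3 member events in which the libraries of the genotypes did not overlap were all pairs listed as mutually exclusive exons, in CELF1, PTBP3 and TIA1. For such a pair the level compares junction reads of one exon with those of its neighbour. CELF1 exons of 111 bp (chr11:47476846-47476956) and 129 bp gave 0.396, 0.404 and 0.409 in WT libraries and 0.463, 0.510 and 0.533 in MT over 242.8 mean reads. Every MT library was higher, the means were 0.403 ± 0.0066 and 0.502 ± 0.0357 (SD, n = 3), and the difference was 0.099 (interval 0.0525 to 0.1455, not corrected for the number of events). Its adjusted p was 0.856 (limma), and its two-sided exact permutation p was 0.1, the smallest that 3 libraries against 3 allow.

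Each of these CELF1 exons was nearly always included when measured as a cassette beside the other. The 111-bp exon ran from 0.989 to 1 over the 6 libraries and the 129-bp exon from 0.989 to 1, so few transcripts contained only one of them. The 3′ splice site of the 111-bp exon is also 1 of a pair 3 bp apart, whose upstream site was used at 0.457 ± 0.0320 in WT and 0.463 ± 0.0394 in MT (SD, n = 3).

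The PTBP3 pair of 147 and 170 bp stood at 0.364, 0.277 and 0.262 in WT libraries and at 0.261, 0.241 and 0.174 in MT, a difference of −0.0757 (interval −0.1668 to 0.0155; exact permutation p = 0.1). The highest MT library was 0.261 and the lowest WT library 0.262. As a cassette, the 147-bp exon was at 1 in every library in one listing (168.9 mean reads), and at 1 in every library but MT1, at 0.964, in another (97.0 mean reads). The same pair listed with another flanking exon gave 0.288 in WT and 0.306 in MT, with the opposite sign. The TIA1 pair of 119 and 33 bp stood at 1, 0.973 and 1 in WT libraries and at 0.912, 0.972 and 0.962 in MT over 22.8 mean reads, a difference of −0.0423 (interval −0.1043 to 0.0196). The same TIA1 exons in a second listing with 78.5 mean reads gave 0.883 and 0.885.

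**Figure D3:**
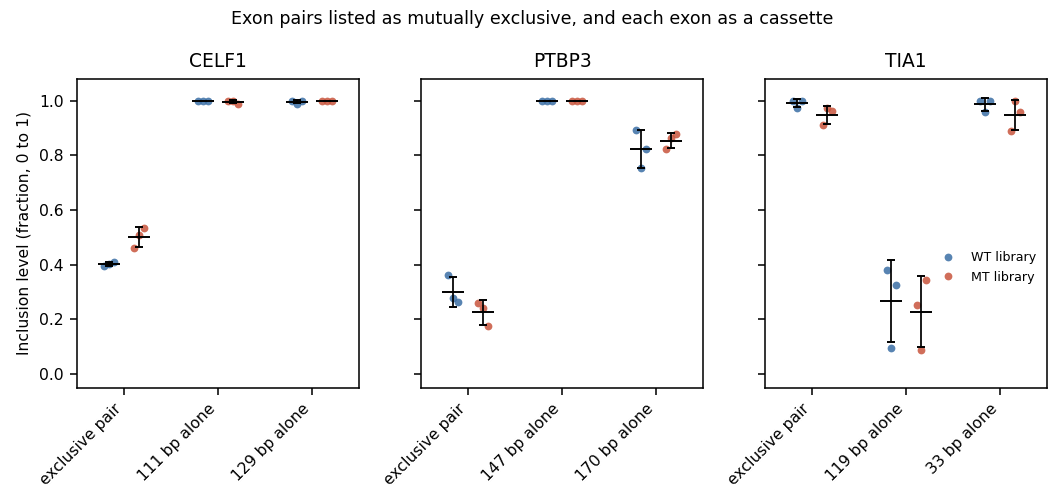
Inclusion level (y axis, fraction) in WT (blue) and MT (red) libraries for the 3 exon pairs listed as mutually exclusive in which the genotypes did not overlap, in CELF1, PTBP3 and TIA1, beside each exon of the pair measured alone as a cassette exon; bars are means and whiskers SD (n = 3). The CELF1 pair lies at 0.403 in WT and 0.502 in MT, while each of its exons alone lies at 0.989 or above in every library.

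Alternative 3′ splice sites are the event type for which K700E is known, and the 10 genes held 18 such choices that varied. None was called (0.241% of all 4989 tested choices of this type were), and none had genotypes that did not overlap (9.6% of all). Differences ran from −0.069 to 0.072 with a median size of 0.0182, against 0.018 over all choices. MT used the upstream site more at 11 of the 18, and at 2293 of all 4989.

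The choices nearest in distance to those known for K700E, with sites 10 to 30 bp apart, were 6 in number. They lie in PTBP1, PTBP2, RBFOX2, QKI and CELF1 and are shown for that distance alone. In both PTBP1 choices, QKI and CELF1, the upstream site was already the main one in WT, at means of 0.956, 0.989, 0.932 and 0.721. There it belongs to the reference (MANE) transcript, so it is not a cryptic upstream site. Each line gives 20 bases of intron, the stretch between the sites and 6 bases beyond, with the AG of each site in capitals (chr19:805472-805518 and chr19:808340-808385 for PTBP1, chr1:96804765-96804805 for PTBP2, chr6:163563400-163563449 for QKI, plus strand; chr11:47478935-47478972 for CELF1 and chr22:35760015-35760052 for RBFOX2, minus strand).
PTBP1, 21 bp: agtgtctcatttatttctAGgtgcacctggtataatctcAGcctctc
PTBP1, 20 bp: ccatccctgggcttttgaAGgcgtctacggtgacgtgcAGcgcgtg
PTBP2, 15 bp: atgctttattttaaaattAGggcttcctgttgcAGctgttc
QKI, 24 bp: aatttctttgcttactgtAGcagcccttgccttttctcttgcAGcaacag
CELF1, 12 bp: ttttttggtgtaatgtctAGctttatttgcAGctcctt
RBFOX2, 12 bp: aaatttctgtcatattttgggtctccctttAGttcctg

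At 5 of the 6 the reference has an AG at both sites, and the upstream site listed for RBFOX2 lacks one. In the 18 bases before the upstream site, the median was 66.7% pyrimidines and 16.7% adenines for these 6, and the same for all 941 tested choices at this distance. Use of the upstream site was nearly complete for the 20-bp PTBP1 choice, 0.989 ± 0.0142 in WT and 0.983 ± 0.0095 in MT (SD, n = 3), and for QKI, 0.932 ± 0.0166 and 0.939 ± 0.0157. The CELF1 choice was used at 0.676, 0.742 and 0.746 in WT libraries and 0.732, 0.747 and 0.562 in MT (difference −0.0410, interval −0.1806 to 0.0986). The RBFOX2 choice was used at 0.385, 0.415 and 0.309 in WT libraries and 0.409, 0.513 and 0.403 in MT (difference 0.0720, interval −0.0337 to 0.1777), the highest of the 18. PTBP2 stood at 0.316 ± 0.1304 and 0.337 ± 0.0323 over 16.0 mean reads. MT was higher at 4 of the 6 and at 521 of the 941, and all 6 had libraries of the genotypes that overlapped. Over all genes, 14.2% of the 941 choices at this distance had none that overlapped and 0.425% were called.

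Another 5 choices, in CELF1 (2), PTBP2, RBFOX2 and TIA1, were between sites 3 bp apart, which add or remove a codon. RBFOX2 used the upstream site at 0.339, 0.277 and 0.344 in WT libraries and 0.368, 0.287 and 0.348 in MT, over 178.9 mean reads, and the TIA1 site was used at 0.899 ± 0.0269 in WT and 0.918 ± 0.0123 in MT (SD, n = 3). The RBFOX2 and TIA1 levels differed far more from each other than between the genotypes. That does not hold for all 5 choices: PTBP2 and a CELF1 choice were close in WT, at 0.439 and 0.457, and the PTBP2 difference between genotypes was 0.0667.

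**Figure D4:**
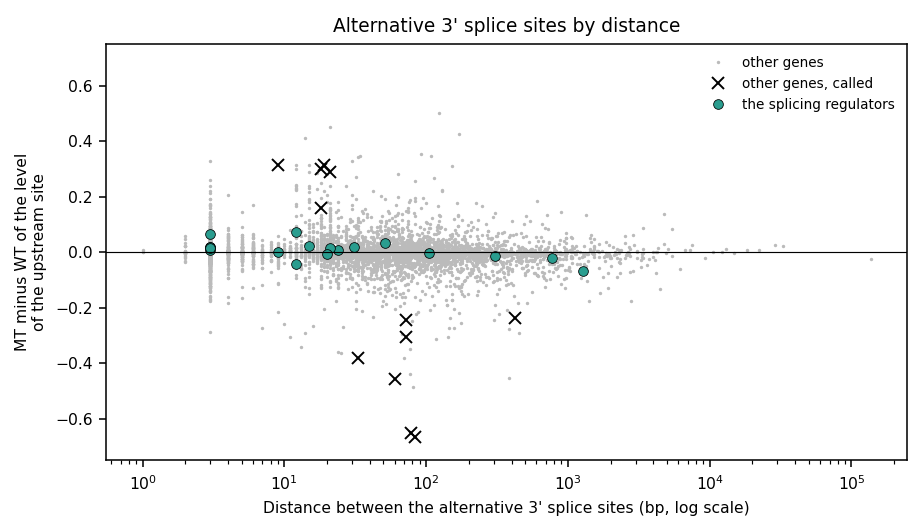
Difference in use of the upstream site (MT minus WT, y axis, fraction) against the distance between the alternative 3′ splice sites (x axis, bp, log scale) for 4989 tested choices; large points are the 18 of the splicing regulators, crosses are the 12 called choices, all in other genes, and grey points are the rest. The 18 large points stay between −0.069 and 0.072 at every distance.

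The 10 genes were also described by their place in the transcript and by the words around their exons. Of the 115 segments, 94 lie in coding sequence and 21 in untranslated or noncoding parts (GENCODE annotation). Both forms were in use at 45 segments, of which 34 lie in coding sequence. At 29 of the 45 the length is a multiple of 3, taken from the first exon for exclusive pairs. That count includes segments outside coding sequence, so it is not a count of segments that keep the reading frame. The 250 bases on each side of 66 tested member cassette exons were searched on the strand of the transcript for the words of the families, counted without overlaps. Where an intron is shorter than that, the searched bases reach past it into the next exon. TGCATG, the RBFOX word, was found beside 27 of the 66 exons (40.9%), against 13.9% of 44848 tested cassette exons of all genes. It was beside 10 of the 17 member exons with both forms in use, among them the 54-bp exons of MBNL1 and MBNL2, and 2 copies follow the 34-bp exon of PTBP2. The 78-bp and 57-bp forms of PTBP1 share the same copy, as do the 68-bp and 376-bp segments of TIAL1. The share over exons of all genes with both forms in use was not counted.

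TTTTT, a TIA word, was beside 60 of the 66 (90.9%, against 73.1%), and ACTAAC, the QKI word, beside 6 (9.1%, against 5.5%). TCTT for PTBP was beside all 66 (against 94.8%), TGTGT for CELF beside 41 (62.1%, against 58.3%) and TGCT for MBNL beside 62 (93.9%, against 92.6%). The PTBP2 34-bp exon had 7 copies of TCTT before it and 5 after it. Exons of the same gene share introns, no test was made of these shares, and a word is not a binding site.

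The same fit was read for 37 other sequence-specific splicing regulators, among them the CELF, ELAVL, NOVA, ESRP and RBM families. There, 22 genes had 268 tested events and none was called by limma (lowest adjusted p = 0.839), where 0.0311% of all events were. An unadjusted p under 0.05 (limma) was found for 7 of them, and for 4.47% of all events. The genotypes did not overlap in 15 of these events (5.6%, against 5.46% of all events). The median size of the difference was 0.0097, against 0.0137 over all events.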

How the data were processed

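RNA-Seq of HEK293T cells, 3 WT and 3 MT libraries grouped by the genotype of their labels, was analysed. The submitters' processing notes name STAR, StringTie, BWA and GRCh38, without roles, and Methods name the rMATS model and a stranded library. The authors deposited, for each splice event, an inclusion level per library, a fraction from 0 to 1 with 3 decimals. They also deposited mean junction reads for each genotype, and the authors' own difference, p-value and adjusted p-value, which were not used. The table lists 6 MT values for each event, and the 3 MT columns equal the first, second and sixth of them. The other 3 values have no column and entered no level, but the authors' mean MT reads cover all 6. Some lists of counts are run together, so no count test was made. Methods state a number of reads per sample, but the table holds no library totals, and the mean junction reads served as depth.

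Square roots of the levels were arcsine-transformed and fitted in limma 3.58.1 under R 4.3.3, with the variance trended on log2 mean reads and p-values adjusted by Benjamini-Hochberg over the 83581 events that had at least 10 mean reads, a level in every library and some variation. Intervals (95%) came from the same fit on the untransformed level. The fit was tested on simulated data. Single differences also had a two-sided exact permutation test. The alternatives were a logit and no transform, read minimums of 50 and 0, no variance trend, each library left out, an adjusted p of 0.1 and no minimum difference, and, chosen after seeing the data, a block on the number in the column names.

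Exons were annotated with GENCODE v44, and sequences were read from GRCh38: 99.8% of 44848 tested cassette exons were flanked there by AG and by GT or GC. The 10 genes, the known exons and the other lists were chosen with earlier results of these data known. The text names each called event, the most read varying event of each gene and the largest difference without overlap at 30 or more mean reads. It also names 13 exons found by the lengths of known exons, among them the PTBP3 segment. Other events were named after their values were seen. DRIP-seq peak lists were not used.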

Additional observations from a re-analysis of the deposited data

How the results depend on the processing

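No member event was called under any alternative run, and the lowest adjusted p of a member ranged from 0.569 to 0.894. This says little for the logit, the untransformed level and the fit without a variance trend, in which 0 of all events were called, against 26 with the settings reported. With at least 50 mean reads, 17 of all events were called, and leaving out any library gave 3 to 13. The events of the other regulators, tested in 22 of the 37 genes, had no call under any alternative run. With 1 event for each segment, the most read listing, 1 in place of 3 member events had genotypes that did not overlap. For the PTBP3 and TIA1 pairs the most read listing was the other one (134.1 and 78.5 mean reads), in which the libraries overlapped. The cause of the lower counts over all events was not tested.

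For the 24 named events with a difference other than 0, 261 of 281 recomputed differences kept their direction. The 20 that did not came from leaving out a library and belonged to 10 events, all with differences of 0.029 or less in size. The remaining event, the 225-bp exon of RBFOX2, had a difference of 0 and ran from −0.0023 to 0.0023 over the libraries left out. Over the libraries left out, the difference ran from −0.026 to 0.093 for the 34-bp exon of PTBP2, from −0.0873 to 0.0172 for the 33-bp and −0.0015 to 0.011 for the 97-bp exon of TIA1, and from −0.0273 to 0.0132 for the 36-bp, −0.0037 to 0.0047 for the 95-bp and −0.005 to 0.0047 for the 963-bp exon of MBNL1. It ran from −0.0003 to 0.0043 for the 34-bp exon of PTBP1, −0.0033 to 0.0037 for the 175-bp exon of PTBP3, −0.0173 to 0.0037 for the 40-bp exon of RBFOX2 and −0.0103 to 0.0025 for the 99-bp exon of TIAL1. Among the rest, the CELF1 pair of 111 and 129 bp kept its direction, from 0.0835 to 0.1185.

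No paired analysis by replicate label was possible because it is not settled which MT samples the 3 MT columns hold. With the number in the column names as a replicate block, which was added after seeing the data, 12 of all events and 0 member events were called (lowest adjusted p of a member 0.82). Deviations of same-numbered libraries correlated at 0.1, 0.097 and 0.027 over all tested events, and each library correlated best with its own number there. Over 17152 events with both forms in use and 50 or more mean reads, the values were 0.34, 0.375 and 0.075. There MT3 correlated best with WT2 (0.103), while WT1 with MT2 gave −0.244 and WT2 with MT1 gave −0.39. Libraries numbered 1 and libraries numbered 2 thus deviated alike, and those numbered 3 barely did. The main fit and its intervals do not use the numbers, because it is not settled which MT samples the columns hold. The 5 named events with fewer than 50 mean reads have no value under that minimum.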
